A study of Bos taurus with 24 samples.

Results

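The transcripts described here were abundant in bovine oocytes at the germinal vesicle (GV) stage and scarce after maturation to metaphase II (MII). They were the 60 genes, of 11306 listed, whose mean over 12 GV libraries was at least 10 FPKM (read fragments scaled to transcript length and library size) and whose mean over 12 MII libraries was at most 12.5% of it. In all, 78 genes met both limits. Of these, 18 were left out by the start of their symbol or by name. The prefixes were those of ribosomal, mitochondrial ribosomal, respiratory chain, proteasome, mitochondrial import, solute carrier, small nuclear ribonucleoprotein and dynein genes. The names were HAX1, FAM162A, HINT2 and TMEM11. The members were thus chosen by their measured GV and MII means, and the difference between the stages is given as a description with no test. Season was not part of the rule.

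Oocytes were aspirated from living adult crossbred, Angus-based beef cows that were neither lactating nor pregnant, in May (spring) or July (summer). There were 4 groups of 6 libraries: spring GV, summer GV, spring MII and summer MII. Each library held a pool of 4 oocytes, which the study attributes to 1 cow, after enzymatic and mechanical removal of cumulus cells. GV oocytes were frozen after recovery, and MII oocytes came from complexes matured in vitro in medium with FSH and serum, so maturation and time in culture cannot be told apart. The same cows were aspirated repeatedly, so pools of different groups can come from 1 cow. Which pool came from which cow is not given in the sources used here, and p-values treat the libraries as independent. The seasons are those of the calendar, and heat was not applied as a treatment.

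The GV oocyte is arrested in the first meiotic prophase, holds an intact nucleus, and stops transcription at the end of growth. It lives on stored maternal mRNA until the embryo activates its own genome. During resumption of meiosis some stored mRNAs receive longer poly(A) tails and are translated, while others are deadenylated and degraded. The libraries were primed from the poly(A) tail, so a lost transcript and one that kept its body but lost its tail cannot be told apart, nor can fewer cells and less RNA per cell. All libraries were scaled to one total (86768.1 to 86768.2 FPKM), so every level is a share of a library, and 0.01 FPKM is the lowest value listed.

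Depth, estimated from the steps between low FPKM values relative to spring GV replicate 1, fell to 0.0565 for replicate 6 of spring GV oocytes, to 0.149 for replicate 6 of spring MII oocytes and to 0.393 for replicate 2 of summer GV oocytes. These 3 libraries are also those with less than 70% of reads mapped. It ranged from 0.542 to 1.06 in the other libraries except summer GV replicates 3 and 5, for which the method is not exact and no estimate is given. Between 8158 and 10989 genes lay above the lowest listed value per library. The summed level of 22 oocyte markers ranged from 1465 to 3567 FPKM over the libraries. Of 36 cumulus and granulosa cell markers, 2 to 14 exceeded 1 FPKM in any one library, and their sum ranged from 28.1 to 595 FPKM, highest in spring GV replicates 6 (595 FPKM) and 3 (265 FPKM). RGS2, the only other listed marker of that kind, was left out of this count and sum, since it was at 447 to 2297 FPKM in every library. KRT8 (9.76 to 146 FPKM) and STAR (9.36 to 64.3 FPKM) also exceeded 1 FPKM in every library and were kept. In spring GV replicate 6 most of the sum came from the keratins KRT18 (392 FPKM) and KRT8 (146 FPKM), whereas INHA was at 1.73 FPKM and HSD17B1 at 0.694 FPKM. The granulosa cell markers CYP19A1 and FSHR stayed at or near the lowest listed value in every GV library. Their highest GV values, 0.0531 and 0.0352 FPKM, were both in spring GV replicate 3. Other markers of the list were higher in that library, with INHA at 37.2 FPKM, HSD17B1 at 39.5 FPKM and 14 of 36 above 1 FPKM. Whether granulosa cells were present in the GV pools was not tested.

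The GV means of the 60 genes ran from 10.3 to 289 FPKM. Of them, 6 had at least 100 FPKM, 13 had 50 to 100, 16 had 20 to 50 and 25 had less than 20. The median MII level was 9.03% of the GV level, with 8 genes under 5%, 34 between 5% and 10% and 18 above 10%. The ratio limit was met by 55 genes in spring libraries alone, by 51 in summer libraries alone and by 46 in both, and the median MII level was 8.77% of the GV level in spring and 8.83% in summer.

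**Figure D1:**
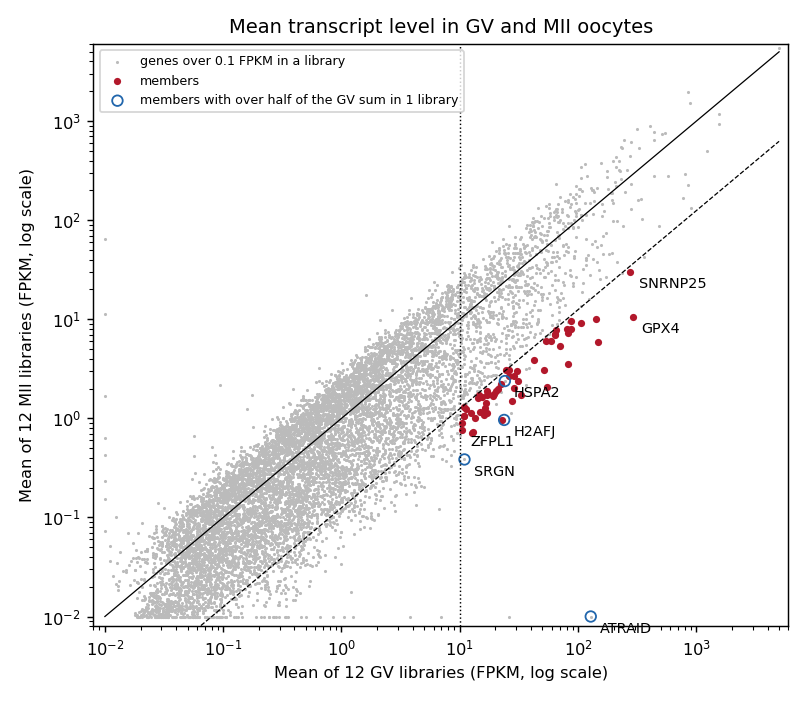
Mean level in 12 MII libraries against mean level in 12 GV libraries (FPKM, both axes logarithmic), with 1 point per gene over 0.1 FPKM in a library; the solid line marks equal levels, the dashed line an MII level of 12.5% of the GV level, and the dotted line a GV mean of 10 FPKM. The 60 members (filled red, or open blue for 4 whose GV sum came mostly from 1 library) fill the lower right corner that the limits cut out, with GPX4 (289 FPKM in GV, 10.5 in MII) and SNRNP25 (277 and 29.9) farthest to the right.

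In spring, every MII library lay below every GV library for 44 of the 60 genes, against 8.98% of all 9526 genes tested, and in summer for 50, against 14.7%. Over both seasons 39 genes had all 12 MII libraries below all 12 GV libraries, against 5.62% of all genes. Without the 3 libraries with less than 70% of reads mapped this count was 53, against 10.2%. The rule itself chose the members by this difference, so nothing is read from these counts.

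Members that act in RNA synthesis and processing held the largest summed GV level of the functional groups, 630 FPKM over 7 genes, which had fallen to 58.1 FPKM in MII oocytes. SNRNP25, a protein of the U11 particle of the minor spliceosome (UMD3.1.1 chr25:113120-115276, plus strand), was listed at 233, 257 and 386 FPKM (lowest, median and highest of 6) in spring GV oocytes and at 222, 259 and 414 FPKM in summer GV oocytes. Its levels were 13.5, 25.4 and 52.5 FPKM in spring MII and 13.7, 33.3 and 45.5 FPKM in summer MII oocytes. It kept the highest MII mean of all members, and its 2 stages did not overlap in any library. POLR2G, the RPB7 subunit of RNA polymerase II (chr29:41777025-41780285, plus strand), was at 28.8, 107 and 142 FPKM in spring GV and 63.8, 123 and 137 FPKM in summer GV oocytes. In MII oocytes it was at 6.43, 8.19 and 13.9 FPKM in spring and 5.24, 8.05 and 14.9 FPKM in summer, again without overlap between the stages.

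The exosome, which trims and degrades RNA from the 3′ end, was represented by the core ring subunits EXOSC4 and EXOSC6. EXOSC6 (chr18:1853417-1853641, plus strand) had an MII mean of 3.79% of the GV mean, one of the 5 lowest ratios: it ranged from 24.1 to 85.0 FPKM in spring GV and from 9.74 to 149 FPKM in summer GV oocytes, and from 0.01 to 7.34 FPKM over all MII libraries. EXOSC4 fell from a mean of 63.9 to 6.88 FPKM, and its summer stages overlapped. NOL12, a nucleolar protein of ribosomal RNA maturation, fell from 70.9 to 5.38 FPKM. TARBP2, the double-stranded RNA binding partner of Dicer, went from 28.7 to 2.02 FPKM and NHP2, a core protein of box H/ACA particles that guide RNA pseudouridylation, from 28.7 to 2.71 FPKM. Beside the members, other genes of like function were compared between MII and GV oocytes with limma, members left out, and counted where p was below 0.05 and the fold above 2. Of all 9526 genes, 8.25% were lower in MII oocytes in spring, 9.26% in summer and 7.3% in both seasons, and 3.57%, 2.2% and 1.42% were higher. Of 27 RNA polymerase subunits, 5 were lower in spring (18.5%), 10 in summer (37%) and 5 in both seasons, and 0 were higher. The 5 included POLR2I (123 ± 26.0 FPKM in GV, 15.9 ± 5.78 in MII, SD, n = 12 each) and POLR2E (19.9 ± 11.3 and 6.05 ± 2.51), both subunits of RNA polymerase II. Of 28 LSM and other small spliceosome proteins, 6 were lower in spring (21.4%), 5 in summer (17.9%) and 5 in both seasons. In each season 3 of the 28 were higher (10.7%), 2 of them in both.

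Selenoproteins, redox enzymes and metabolic enzymes were the next largest group, with 547 FPKM over 9 genes in GV oocytes and 34.1 FPKM in MII oocytes. GPX4, the selenoenzyme that reduces lipid hydroperoxides in membranes (chr7:45205077-45207499, plus strand), had the highest GV mean of all members. It was listed at 62.0, 315 and 532 FPKM in spring GV and at 94.8, 285 and 388 FPKM in summer GV oocytes, against 8.83, 11.8 and 15.4 FPKM in spring MII and 5.41, 9.65 and 12.8 FPKM in summer MII oocytes. The lowest GV library, at 62.0 FPKM, lay well above the highest MII library. Its MII mean was 3.63% of the GV mean, the third lowest ratio. SEPW1, a small selenoprotein with a redox motif, was at 25.8, 96.9 and 145 FPKM in spring GV and 36.8, 69.3 and 93.7 FPKM in summer GV oocytes, and its MII values ran from 2.90 to 15.7 FPKM. CBR3, a cytosolic carbonyl reductase (chr1:150144149-150153936, plus strand), ranged from 30.3 to 130 FPKM over the GV libraries and from 3.87 to 12.1 FPKM over the MII libraries. All 3 were separated between the stages in every library.

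The other members of this group lay lower: PIGC, which acts in the first step of GPI anchor synthesis, had a GV mean of 21.0 FPKM, PDXP (a pyridoxal phosphate phosphatase) 17.4, GALK1 (galactokinase) 16.2, ALAD (a heme synthesis enzyme) 12.7, GUK1 (guanylate kinase) 10.9 and SRM (spermidine synthase) 10.5. Their MII means were 5.65% to 10.2% of these levels. Among 40 other genes of redox and peroxide defence, 7 were lower (17.5%, against 8.25% of all genes) and 2 higher in spring MII oocytes, 7 lower (17.5%, against 9.26%) and 0 higher in summer, and 6 lower in both. PRDX2, a cytosolic peroxiredoxin, fell from 905 ± 369 to 131 ± 40.8 FPKM (SD, n = 12 each), and PRDX5, a peroxiredoxin of mitochondria and peroxisomes, from 68.5 ± 16.8 to 13.3 ± 3.40 FPKM, both short of the ratio limit.

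**Figure D2:**
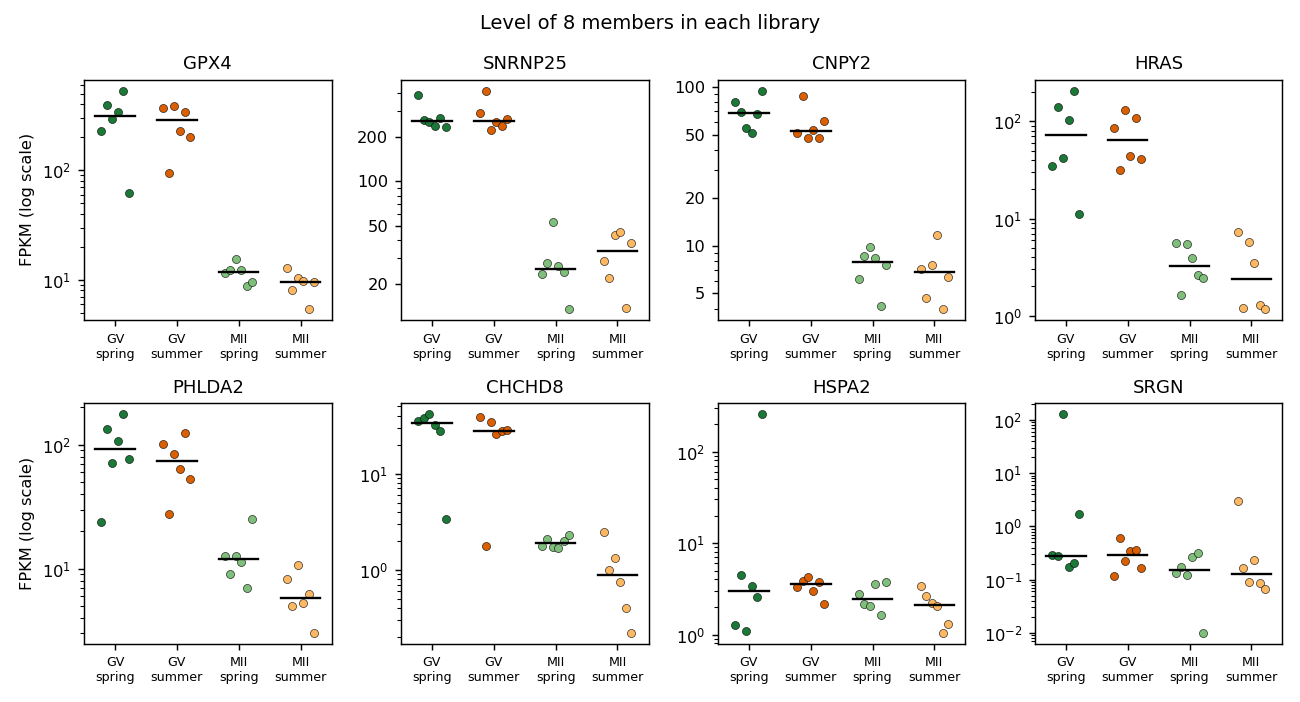
FPKM of 8 members in each library (1 point per library, logarithmic axes that differ between panels; the bar is the median of 6), by stage and season. For GPX4, SNRNP25, CNPY2 and HRAS all MII points lie below all GV points, whereas HSPA2 and SRGN owe their GV mean to 1 spring library each (255 and 127 FPKM).

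Mitochondrial members numbered 9, with a summed level of 175 FPKM in GV and 15 FPKM in MII oocytes. CHCHD8, an assembly factor of cytochrome c oxidase (chr15:54128459-54130972, minus strand), was listed at 3.40, 33.5 and 41.2 FPKM in spring GV and at 1.77, 27.9 and 38.3 FPKM in summer GV oocytes. In MII oocytes it was at 1.69, 1.88 and 2.32 FPKM in spring and at 0.222, 0.880 and 2.48 FPKM in summer. Both lowest GV values came from libraries with less than 70% of reads mapped. CYC1, the cytochrome c1 subunit of respiratory complex III, fell from 26.1 to 3.08 FPKM on average, and its summer GV values started at 3.49 FPKM, below the highest summer MII value of 6.47 FPKM.

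Mitochondrial gene expression was represented by TUFM (the organelle's elongation factor Tu, 24.7 to 3.07 FPKM), MPV17L2 and DDX28 (both with roles in mitochondrial ribosome assembly, 18.9 to 1.67 and 15.5 to 1.64 FPKM). TUFM lay closest to the ratio limit. TMEM177 and TMEM223, linked to cytochrome c oxidase assembly, had MII means of 4.30% and 12% of their GV means. BOLA1, linked to iron-sulfur and redox metabolism of mitochondria, fell from 16.1 to 1.09 FPKM, and PTPMT1, a phosphatase of cardiolipin synthesis, from 13.0 to 0.731 FPKM, with no overlap between stages for either. Of 55 other small mitochondrial proteins outside the ribosome and respiratory complexes, 13 were lower in spring (23.6%, against 8.25% of all genes), 14 in summer (25.5%, against 9.26%) and 11 in both seasons. In each season 4 were higher (7.27%, against 3.57% of all genes in spring and 2.2% in summer), 2 of them in both. HIGD1A, a mitochondrial protein induced by hypoxia, was among the higher ones (13.0 ± 4.06 FPKM in GV and 35 ± 8.87 in MII oocytes, SD, n = 12 each).

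The signaling and cell death group held 9 genes, with 371 FPKM in GV and 30.5 FPKM in MII oocytes. PHLDA2, a small pleckstrin homology protein known as an imprinted gene of the placenta (chr29:49329504-49330561, plus strand), was at 23.6, 92.5 and 176 FPKM in spring GV and 27.4, 73.4 and 124 FPKM in summer GV oocytes. In MII oocytes it was at 6.93, 12 and 25.1 FPKM in spring and 3.04, 5.77 and 10.7 FPKM in summer. Its spring stages overlapped, since the lowest GV library lay below MII replicate 6 at 25.1 FPKM, and its summer stages did not. HRAS, the GTPase that relays growth factor signals (chr29:51095423-51098332, plus strand), ranged from 11.1 to 207 FPKM in spring GV and from 31.3 to 131 FPKM in summer GV oocytes, and from 1.17 to 7.29 FPKM in MII oocytes, without overlap. LAMTOR4, a subunit of the Ragulator complex that anchors nutrient sensing at lysosomes, fell from 59.4 to 5.99 FPKM and LIMD2, a LIM domain protein, from 51.2 to 3.1 FPKM. Among 27 other genes of the vacuolar ATPase and Ragulator, 5 were lower in both seasons (18.5%, against 7.3% of all genes) and 0 were higher, LAMTOR2 (30.0 ± 7.32 to 5.89 ± 2.98 FPKM) among them.

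FADD, the adaptor of death receptors, had a GV mean of 19.3 FPKM, IRF7, a transcription factor of the interferon response, 17, the adaptor SHD 16.9, and ENHO, which encodes a secreted peptide of energy homeostasis, 16.5. RASSF7, a Ras association domain protein, was the most spread member of the group: it ranged from 0.679 to 65.8 FPKM in spring GV and from 3.28 to 43.9 FPKM in summer GV oocytes, and the stages overlapped in both seasons.

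Of the 5 chromatin members, PRMT6, a histone arginine methyltransferase, fell from 31.0 to 2.39 FPKM, CBX8, a Polycomb subunit that reads methylated histone H3, from 15 to 1.15 FPKM, and NUDT16L1, a regulator of the DNA repair protein 53BP1, from 13.4 to 0.999 FPKM. HIST3H2A, a histone H2A gene, went from 20.04 to 1.91 FPKM. H2AFJ, another H2A variant, is described with the genes whose GV sum came mostly from 1 library. In the list of 32 other histones and small chromatin proteins, 10 were higher in spring (31.2%, against 3.57% of all genes) and 8 in summer (25%, against 2.2%), while 2 were lower in spring (6.25%, against 8.25%) and 4 in summer (12.5%, against 9.26%). H3F3A, which encodes histone H3.3, rose from 56.6 ± 13.1 to 144 ± 14.6 FPKM (SD, n = 12 each), and HMGB2, a DNA-bending chromatin protein, from 105 ± 24.2 to 341 ± 87.6 FPKM.

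Grouped under translation were EIF1AD (30.4 to 3.03 FPKM) and EIF6, which keeps the ribosomal subunits apart (15.9 to 1.16 FPKM). EIF1AD was placed there by its symbol and eIF1A-like domain, and a role of it in translation was not tested. Among 50 other translation factors and ribosome-associated proteins, 7 were lower in each season (14%, against 8.25% of all genes in spring and 9.26% in summer) and 3 higher (6%, against 3.57% and 2.2%). EIF3G, a subunit of initiation factor 3, fell from 14.7 ± 5.29 to 1.90 ± 2.26 FPKM. The cytoskeleton, trafficking and folding group held 12 genes and 386 FPKM in GV oocytes. TUBB4B, a beta-tubulin (chr11:105860108-105862550, minus strand), was at 28.5, 104 and 157 FPKM in spring GV and at 43.4, 58.0 and 109 FPKM in summer GV oocytes, and at 1.29 to 14.4 FPKM in MII oocytes. CNPY2, a resident of the endoplasmic reticulum, ranged from 47.6 to 94.6 FPKM over all GV and from 3.99 to 11.6 FPKM over all MII libraries. PDZD11, a PDZ protein of ATPase sorting, fell from 53.2 to 6.05 FPKM. TRAPPC5, a subunit of the vesicle tethering complex TRAPP, fell from 64.4 to 7.86 FPKM and overlapped in spring through a GV value of 2.30 FPKM in replicate 6.

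The remaining members of this group had GV means below 30 FPKM: C17H12orf49 (26.0 FPKM), COMMD4 (16.9), ENKD1 (12.3), ARPC4 (11.2), a subunit of the actin nucleating ARP2/3 complex, HSPBP1 (10.8), an exchange factor for HSP70 chaperones, and ZFPL1 (10.3), a Golgi protein. Of 26 other actin regulators, 3 were lower in spring and 4 in summer (11.5% and 15.4%, against 8.25% and 9.26% of all genes), with 1 higher in each. Of 57 other vesicle trafficking genes, 4 were lower in spring and 7 in summer (7.02% and 12.3%), near the shares of all genes, and 5 and 4 were higher (8.77% and 7.02%, against 3.57% and 2.2%). Among 7 members with less known roles, SSSCA1, an autoantigen with a zinc ribbon (chr29:44418400-44419681, plus strand), was at 43.9, 141 and 224 FPKM in spring GV and 36.6, 181 and 206 FPKM in summer GV oocytes. Its MII values stayed between 2.35 and 9.77 FPKM, 3.98% of the GV mean on average. C15H11orf71 (42.1 to 3.89 FPKM), CCDC107 (32.6 to 1.72), NR2C2AP (14.5 to 1.72) and CACFD1 (14.1 to 1.6) were all separated between the stages.

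**Figure D3:**
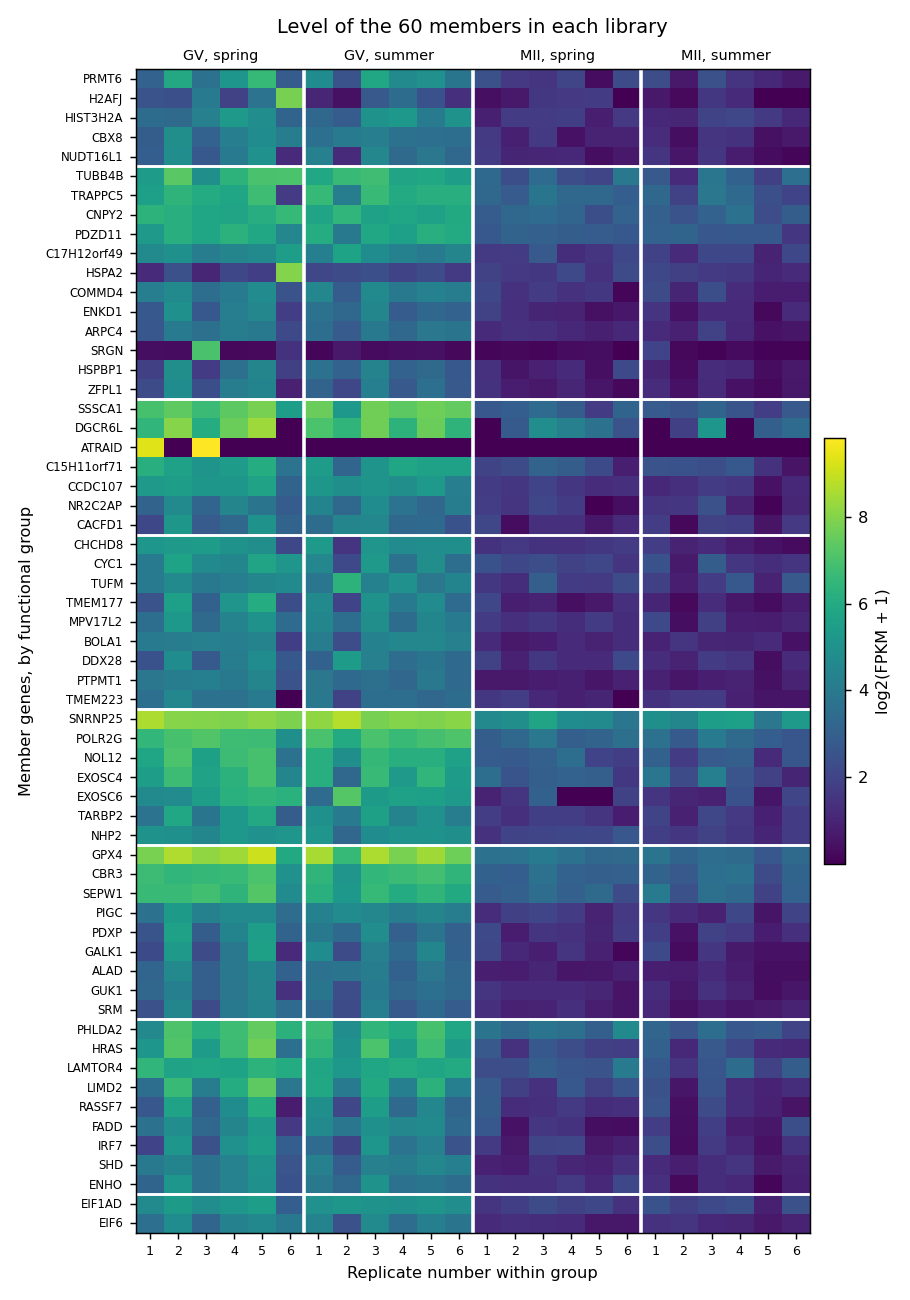
Level of each of the 60 members, log2(FPKM + 1), in each of 24 libraries, with the members in rows by functional group and the libraries in columns by group. Nearly all rows change from bright to dark between the GV and MII columns in both seasons; ATRAID, HSPA2, SRGN and H2AFJ instead show 1 or 2 bright libraries, and spring GV replicate 6 and summer GV replicate 2 are darker than the other GV columns.

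For 4 members more than 50% of the GV sum came from 1 library. ATRAID is listed at 2 loci. The locus that met the limits (chr4:59429056-59429309, minus strand) was at 643 and 893 FPKM in spring GV replicates 1 and 3 and at 0.01 FPKM in every other library of either stage. The other locus (chr11:72405112-72409447, minus strand) was at 0.01 FPKM in those same 2 libraries and at 26.4 to 63.4 FPKM in all others, with a mean MII level of 85.2% of the GV level. HSPA2, a testis-enriched HSP70 chaperone, stood at 255 FPKM in spring GV replicate 6 and between 1.09 and 4.45 FPKM in the other GV libraries. H2AFJ stood at 222 FPKM in the same library and between 0.372 and 14.97 FPKM in the others. That library also held the highest level of the epithelial keratin KRT18 (392 FPKM, against 0.149 to 2.22 FPKM in the other spring GV libraries), and 10 of 36 cumulus markers exceeded 1 FPKM in it. KRT18 was also at 34.4 FPKM in summer GV replicate 2 and 70.8 FPKM in spring MII replicate 6. It reached 16.6 and 8.93 FPKM in summer MII replicates 6 and 4. In these other libraries HSPA2 was at no more than 3.86 FPKM and H2AFJ at no more than 1.26 FPKM.

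SRGN, a proteoglycan of secretory granules in blood cells, stood at 127 FPKM in spring GV replicate 3 and at 0.119 to 1.74 FPKM in the other GV libraries. In that library 14 of 36 cumulus and granulosa markers exceeded 1 FPKM, including VIM (75.7 FPKM, against at most 2.16 FPKM in the other GV libraries), INHA (37.2 FPKM, at most 1.73 in the others) and HSD17B1 (39.5 FPKM, at most 1.38 in the others). The part of other cells in these values was not tested. DGCR6L (chr15:73440856-73441129, plus strand), the fourth most abundant member, is also listed at 2 loci, the other of which (chr17:74049771-74053883, plus strand) was at 0.01 FPKM in most libraries. The abundant locus was at 0.01, 142 and 329 FPKM in spring GV, 79.5, 107 and 206 FPKM in summer GV, 0.01, 8.91 and 27.3 FPKM in spring MII and 0.01, 4.74 and 34.3 FPKM in summer MII oocytes. The levels of ATRAID and DGCR6L at either locus are uncertain, since the sources used here do not say how reads that match both loci were placed.

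The 56 members other than these 4 took 1.48% to 5.01% of a GV library's total and 0.114% to 0.364% of an MII library's. In spring GV oocytes the share was 3.15% ± 1.31 (SD, n = 6) and in summer GV oocytes 2.83% ± 0.620. The MII shares were 0.256% ± 0.0584 in spring and 0.229% ± 0.0942 in summer. The season difference was within the spread between libraries at each stage. The lowest GV shares were those of the low-mapping libraries, 1.48% in spring GV replicate 6 and 2.04% in summer GV replicate 2, and without them the means were 3.48% ± 1.14 and 2.99% ± 0.538 (n = 5 each).

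**Figure D4:**
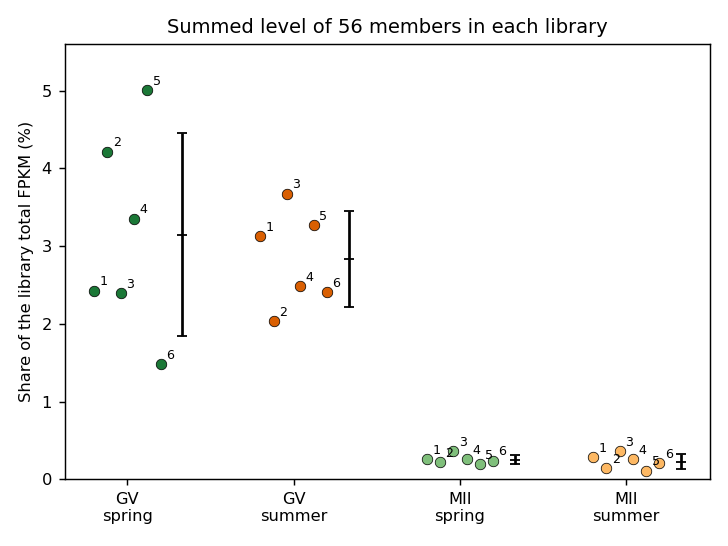
Summed FPKM of 56 members as a percentage of the library total, with 1 point per library labelled by its replicate number and the mean ± SD of 6 beside each group. GV libraries lie between 1.48% and 5.01% and MII libraries between 0.114% and 0.364%, and spring and summer overlap at both stages.

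The 56 genes rose and fell together from one GV library to the next. Over 12 GV libraries, after the season means were taken out, the median correlation between pairs of members was 0.610, against 0.00789 between pairs of the 936 other genes with a GV mean of at least 10 FPKM, and 0.194 between pairs of the 18 family genes left out by the rule. Over the 12 MII libraries these medians were 0.426, 0.0724 and 0.437. Without the low-mapping libraries the members' medians were 0.581 in GV (10 libraries) and 0.493 in MII oocytes (11 libraries). All of these genes share each library's depth and base composition. In spring, 36 of the 56 (64.3%) were lowest in GV replicate 6, as were 35% of the other 936 abundant genes, and 27 (48.2%) were highest in replicate 5, against 10.5% of the others, with 17 more (30.4%, against 16.8%) highest in replicate 2. In summer 35 (62.5%, against 34.2%) were lowest in GV replicate 2 and 32 (57.1%, against 16.7%) highest in replicate 3. The spring libraries 2 and 5 and the summer library 3 also had the highest GC content of reads among GV libraries in the study's alignment summary, and the part of GC content in this pattern was not tested. The coefficient of variation over GV libraries had a median of 50.8% for members and 40.1% for the other abundant genes.

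Summer and spring GV oocytes were compared to ask whether season moved these stored transcripts before maturation. Differences are summer minus spring on the log2(FPKM + 1) scale, which understates changes of low genes. No member passed p below 0.05 with a fold above 2 (0 of 60, against 0.0315% of all genes), and 0 had an unadjusted p below 0.05 in the limma test, against 1.55% of all genes. The median difference was −0.06, against 0.01 over all genes, with 38 members lower and 22 higher in summer, where 45.0% of all genes were lower. This direction turned with single libraries: without spring GV replicate 5, 22 members were lower and 38 higher (median 0.14), without spring GV replicate 2 23 were lower (0.12) and without summer GV replicate 2 24 were lower (0.07), whereas without spring GV replicate 6 53 were lower (median −0.27). Absolute differences stayed under 0.5 for 53 members, lay between 0.5 and 1 for 4 and exceeded 1 for ATRAID (−3.18), H2AFJ (−1.82) and SRGN (−1.24). Without spring GV replicate 6 the H2AFJ difference was −1.01. These 3 and HSPA2 met the limit of 10 FPKM through spring GV libraries and did not meet it in summer libraries alone, so their lower summer values follow from the choice of members and are given with no test. Among the 56 others, 34 were lower and 22 higher, with a median of −0.04. These 56 still include SRM, ZFPL1 and TMEM223. Their GV means met the limit in spring (12.4, 12.1 and 12.1 FPKM) but not in summer (8.67, 8.57 and 9.54 FPKM). The choice of members therefore bears on this split too. The median standard error was 0.49, so that 2 standard errors came to about a 2-fold difference.

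Of the 56, CYC1 had the smallest limma p-value in GV oocytes (difference −0.95, SE 0.50, p = 0.0777, exact permutation p = 0.110, adjusted p = 1). Its MII level was also above the ratio limit in summer libraries alone. CYC1 was at 15.2, 29.4 and 52.2 FPKM in spring and 3.49, 16.9 and 38.3 FPKM in summer GV oocytes, and the seasons overlapped. For the most abundant members the interval of 2 standard errors on each side of the GV season difference ran from −1.06 to 0.91 for GPX4 and from −0.37 to 0.43 for SNRNP25.

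In MII oocytes, the comparison of seasons asked about the residue left after maturation. Again 0 of 60 members passed both limits, against 0.042% of all genes, and 3 had an unadjusted limma p below 0.05, against 2.11% of all genes. The median difference was −0.14 on the log2(FPKM + 1) scale, against −0.01 over all genes, with 44 members lower and 16 higher in summer, where 58.3% of all genes were lower. The members vary together between libraries, so these directions are not independent of each other. DDX28, NR2C2AP, PHLDA2, TRAPPC5 and TUFM met the ratio limit in summer libraries alone but not in spring libraries alone. ATRAID, CACFD1, CYC1, EXOSC4, H2AFJ, HSPA2, PDXP, SRGN and TMEM223 met it in spring libraries alone but not in summer. The choice of members therefore bears on these directions too. The size of the median depended on the scale. It was −0.27 with a pseudocount of 0.1 and −0.30 with none, against −0.04 and −0.08 over all genes. With quantile normalization and with median-of-ratios scaling it was −0.10. PHLDA2 was lower in summer by 0.89 on the log2 scale (SE 0.31), with medians of 12 FPKM in spring and 5.77 FPKM in summer and overlapping ranges (limma p = 0.0136, exact permutation p = 0.0152, adjusted p = 1). Its MII level was 13.2% of the GV level in spring libraries alone, above the ratio limit, and 8.50% in summer libraries alone. PHLDA2 thus became a member through its summer libraries, and its p-values are not independent of that choice and are not read as support. For CHCHD8 the difference was −0.61 (SE 0.22), and 5 of 6 summer libraries lay below the lowest spring library (limma p = 0.0180, exact permutation p = 0.0216, adjusted p = 1). ENHO ranged from 1.21 to 3.42 FPKM in spring and from 0.126 to 1.59 FPKM in summer MII oocytes, a difference of −0.67 (SE 0.25, limma p = 0.0190, exact permutation p = 0.0152, adjusted p = 1).

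By function, the median MII season difference was lowest for the 9 mitochondrial members (−0.32, 6 lower in summer) and the 9 signaling members (−0.28, 7 lower), and it was −0.14 for the 9 redox and metabolic members (8 lower), −0.13 for the 12 cytoskeleton, trafficking and folding members (11 lower) and −0.06 for the 7 RNA processing members (4 lower). The 7 less characterised members had a median of −0.21 (4 lower), the 5 chromatin members −0.16 (4 lower) and the 2 translation members 0.14 (0 lower). The median standard error of a single member was 0.29. In GV oocytes the medians of the groups lay between −0.10 and 0.02.

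**Figure D5:**
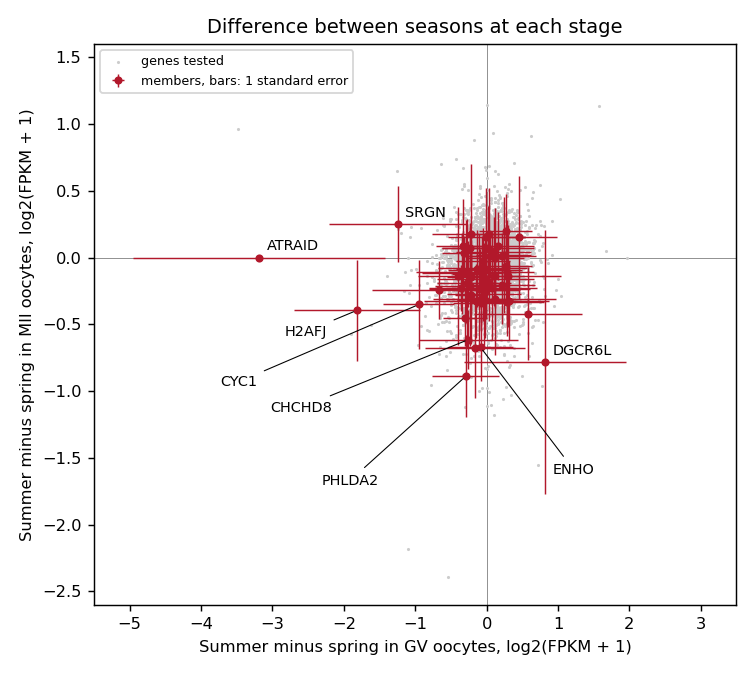
Summer minus spring difference in MII oocytes against that in GV oocytes, both as log2(FPKM + 1), for all genes tested (grey) and the 60 members (red, bars of 1 standard error). The members cluster around 0 on both axes; ATRAID (−3.18), H2AFJ (−1.82) and SRGN (−1.24) stand apart in GV oocytes and PHLDA2 is the lowest in MII oocytes (−0.89).

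Whether the fall from GV to MII differed between the seasons was tested as an interaction over all 4 groups. None of the 60 members passed p below 0.05 in limma (0 with a fold above 2, against 0.21% of all genes, and 0 at p below 0.05 alone, against 1.8%). The fall was steeper in summer for 37 members and less steep for 23, with a median of −0.10 against −0.03 over all genes, of which 57.9% lay below 0. With median-of-ratios scaling 22 were steeper and 38 less steep (median 0.10, and 39.2% of all genes below 0), and without spring GV replicate 6 18 were steeper and 42 less steep (median 0.16). Without summer GV replicate 3 the split was 29 and 31 (median 0.01). The values of ATRAID (3.18), H2AFJ (1.42), SRGN (1.49) and HSPA2 (0.41), all less steep in summer, follow from GV levels that met the limit through spring libraries and are given with no test. SRM (0.14), ZFPL1 (−0.02) and TMEM223 (0.05) also met the limit of 10 FPKM only through spring GV libraries. Without ATRAID, H2AFJ, SRGN and HSPA2 the split was 37 and 19 (median −0.14). The ratio limit bears on it too. DDX28, NR2C2AP, PHLDA2, TRAPPC5 and TUFM missed that limit in spring libraries alone and were all steeper in summer. CACFD1, CYC1, EXOSC4, PDXP and TMEM223 missed it in summer libraries alone and were all less steep. These directions follow in part from the choice of members, so the split is not read as an effect of season.

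The members were short genes. The median genomic span from start to end was 2910 bases (UMD3.1.1), against 4292 bases for the 936 other abundant genes and 19714 bases for all genes listed, and 71.7% of members, 56.2% of the other abundant genes and 16.1% of all genes spanned less than 5 kb. No member reached 20 kb. Chromosome 29 carried 10 of the 60 (POLR2G, TMEM223, ZFPL1, SSSCA1, EIF1AD, FADD, PHLDA2, IRF7, RASSF7 and HRAS), or 16.7%, against 4.49% of the other abundant genes and 2.88% of all genes, and chromosome 7 carried 8, or 13.3%, against 7.16% and 5.65%. Among neighbours, CYC1 and EXOSC4 lay 14.6 kb apart on chromosome 14, PDXP and NOL12 15.2 kb on chromosome 5, POLR2G and TMEM223 15.3 kb and RASSF7 and HRAS 64.4 kb on chromosome 29. The span of 9 members overlaps another listed gene, and of these partners only RBM7 over C15H11orf71 (12.5 FPKM) and MRPL55 over GUK1 (20.3 FPKM in GV, 2.75 in MII) exceeded 2 FPKM in a stage mean. The sources used here do not state that counting used strand.

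The limits left close neighbours on both sides. Just inside the ratio limit the MII level was 12.46% of the GV level for TUFM, 12.19% for TRAPPC5 and 12% for TMEM223, and just outside it was 12.56% for NUPR2, 12.64% for LENG1 and 12.66% for PHPT1. The GV means just inside 10 FPKM were those of ZFPL1 (10.3), SRM (10.5) and TMEM223 (10.8), and just outside lay MALSU1 (9.97), SSBP1 (9.65) and GPRC5C (9.54).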

How the data were processed

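Smart-seq2 v4 libraries were sequenced as 100 bp paired ends. According to the methods of the study, the authors aligned trimmed reads to UMD3.1.1 with STAR 2.5.3a and deposited one table of FPKM values, 1 column per library, with the locus of each gene. No read counts are used here, so depth is known only relative to other libraries, from the steps between low FPKM values (checked on simulated depths). The study's own test statistics were not used.

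Groups were taken from the sample titles. Members, pathway lists and tests were chosen with earlier results of these data known, and functional groups were assigned after the members were seen. Genes over 0.1 FPKM in at least 1 library (9526) were tested as log2(FPKM + 1) in R 4.3.3, and limma 3.58.1 moderated the spread along mean expression. A gene was called at p below 0.05 and a fold above 2, and adjusted p-values (Benjamini-Hochberg) are over all genes tested. Single members were also tested by two-sided exact permutation over 924 assignments. The limma step was tested on simulated data. The libraries named low-mapping are those with less than 70% of reads mapped in the study's alignment summary. Genes named are the 10 highest by GV mean, the 5 with the lowest ratio, those nearest each limit, the 3 with the smallest p in each season comparison, and up to 4 per functional group, and all other members by their means. Alternatives were another pseudocount, filter, scaling or moderation, all 4 groups in one fit, a replicate block, and leaving out each library or the low-mapping ones. Pools of different groups can come from the same cow, and the labels do not tie a cow to a replicate number.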

Additional observations from a re-analysis of the deposited data

Results flagged for a closer look

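Among the named members, 14 values stood apart from the other 5 libraries of their group by Dixon's test. The test was run on FPKM values. It marks about 1 group in 20 only for normal values, which was not checked, and the members vary together. Over all members 30 of 240 groups (12.5%) held such a value, so this share is not read as an excess. Of these values, 12 were in summer GV replicate 2 and 5 in spring GV replicate 6, both low-mapping libraries.

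In spring GV replicate 6, CHCHD8 was low at 3.40 FPKM, and H2AFJ at 222 FPKM and HSPA2 at 255 FPKM were high. In summer GV replicate 2, CHCHD8 (1.77 FPKM) and SSSCA1 (36.6 FPKM) were low while SNRNP25 was high at 414 FPKM. The other GV values were high ones: SNRNP25 in spring replicate 1 (386 FPKM), SRGN in spring replicate 3 (127 FPKM) and ENHO in summer replicate 3 (31.8 FPKM).

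In MII oocytes, the high values were CBR3 (12.05 FPKM) and SNRNP25 (52.5 FPKM) in spring replicate 3, PHLDA2 in spring replicate 6 (25.1 FPKM), DGCR6L in summer replicate 3 (34.3 FPKM) and SRGN in summer replicate 1 (2.95 FPKM). The part of mapping rate and depth in these values was not tested.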

How the results depend on the processing

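The number of genes meeting the limits was 39 after quantile normalization, all of them among the 60, and 82 after median-of-ratios scaling, which included all 60. It was 69 without the low-mapping libraries (57 shared), and leaving out any single library gave 52 to 69. The count for season in GV oocytes, 0 as reported, became 1 with a pseudocount of 0.1, 1 with no pseudocount, 1 with median-of-ratios scaling and 2 with all 4 groups in one fit, and 0 to 2 when a library was left out (2 without spring GV replicate 1, and 1 without spring GV replicate 2 or 4 or summer GV replicate 3 or 4). H2AFJ passed under each of the first 3, and ATRAID and H2AFJ in the joint fit. The count in MII oocytes, also 0, became 2 with a pseudocount of 0.1 and 3 with none, and 0 to 1 when a library was left out (1 without spring MII replicate 5 or summer MII replicate 3). The interaction stayed at 0 in every alternative run. With median-of-ratios scaling the median GV season difference was −0.21 with 47 members lower, and leaving out single libraries moved it between −0.27 and 0.14. By adjusted p, PHLDA2, CHCHD8 and ENHO all missed the threshold in MII oocytes. CHCHD8 also lost p below 0.05 under both other scalings and in the joint fit, and ENHO in the joint fit. The cause was not tested.

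Same-numbered libraries were not taken as pairs, since the labels tie the numbers to no cow and not every pair correlated above 0.1: 1 of 6 pairs did between GV seasons, 4 of 6 between MII seasons, 3 of 6 in spring and 4 of 6 in summer. Between MII seasons 4 of 6 libraries correlated best with their own number, a hint from the data and not from the design, and the replicate block moved the number of genes with p below 0.05 there from 201 to 370. A fit with the replicate number as a block called 0 members for season in GV oocytes, 0 in MII oocytes and 0 for the interaction. Read depth is known only in relative terms, which limits what can be said of MII levels near the lowest listed value.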
